A study of Rattus norvegicus with 54 samples.

Results

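The comparison described here sets 6 adult male rats' libraries with ethanol exposure before birth and again in adolescence against 6 adult male libraries without either exposure. Tissue was the nucleus accumbens of Long Evans rats, sampled at postnatal day 90 (P90) with no challenge before collection. The exposed group carries the titles PAE and AAE, for prenatal ethanol and adolescent alcohol. The control group carries FCL and VEH, for a free-choice liquid diet before birth and water in adolescence. Members were chosen by these titles, and they are 12 of the 54 libraries of the series. The other libraries are 13 adult females of the same 2 exposure groups and 29 adolescents. Every exposed adult had both exposures, so the prenatal and the adolescent part cannot be told apart, and no pair-fed group enters the comparison. In the text below, controls and exposed libraries are numbered 1 to 6 within their group by order of deposition, and the same number in both groups does not mark a pair. The labels do not say that each library came from a separate animal or litter, and if some did not, the p-values measure spread that may be technical.

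The nucleus accumbens is the ventral part of the striatum and weighs reward and motivation. Most of its neurons are GABA-releasing spiny projection neurons. One class carries the D1 dopamine receptor with the peptides dynorphin and substance P, and the other carries the D2 receptor with enkephalin. Cholinergic and GABA-releasing interneurons, astrocytes, oligodendrocytes, microglia and vessels make up the rest. Ethanol raises dopamine release in this tissue, and ethanol exposure during brain growth is known to disturb glial maturation, myelin and neurotrophin signalling.

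The 12 libraries held 59.6 to 91.3 M counts each, within the 59.1 to 103.8 M of the whole series. Spiny neuron markers were present in every library, with Drd1 between 190 and 457 CPM (read counts scaled to library sizes by the TMM method) and Penk between 531 and 1233 CPM. Xist, the noncoding RNA of the inactive X chromosome, averaged 691 ± 196 CPM (SD, n = 8) in adult control females. It lay at 9.32, 4.22 and 56.7 CPM in male controls 4, 5 and 6, at 30.04 CPM in exposed 5 and at 1.63 CPM or less in the other 8, and its source was not tested. Kdm5d, a Y-linked histone demethylase, was present in all 12 and lowest in control 6, at 30.4 CPM against 37.2 to 46.6 CPM in the others. Controls 4, 5 and 6 lay at -42.1, -55.7 and -103 on the first principal component, which held 14.8% of the variance, and the other 9 libraries lay between 15 and 66.7. These 3 controls also had the smallest shares of counts from long noncoding RNAs, at 0.768% to 0.896% against 1.02% to 1.30% in the others. Among the 12 male libraries, control 6 stood farthest out on both, and many of the results below are given with and without it.

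Cells and tissue around the accumbens entered the libraries unevenly. A list score, the mean over a list's genes of log2 CPM centred per gene, was used to place each library. Choroid plexus genes scored 1.49, 2.01 and 2.81 in controls 3, 4 and 6 and 2.69 in exposed 6, and lay below 0 in the other 8. Ttr, the transthyretin gene that defines choroid plexus, ran from 31.9 to 3537 CPM in controls and from 14.3 to 1386 CPM in exposed libraries. Cortical neuron genes scored 1.45 in control 1. Exposed 2 had the highest scores for blood, at 3.65, for meningeal fibroblasts, at 2.39, and for mural cells of vessels, at 1.53. The spiny neuron score was lowest in exposed 3, at -0.71. In whole tissue, fewer cells of a type and less RNA per cell cannot be told apart, here and in every result on marker genes below.

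**Figure D1:**
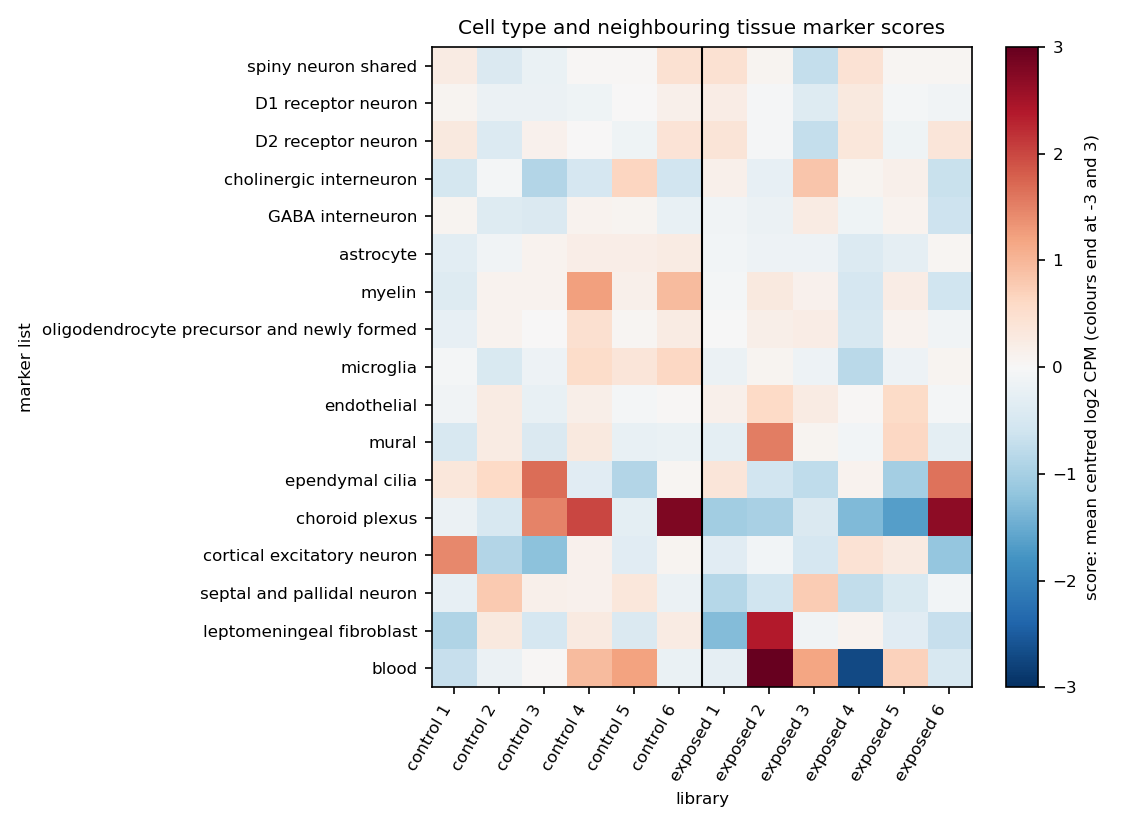
Marker scores (colour, mean centred log2 CPM) of 17 cell type and tissue lists in rows and the 12 libraries in columns, controls left of the line. Choroid plexus is high in controls 3, 4 and 6 and exposed 6, and blood is high in exposed 2 at 3.65, beyond the end of the colour scale.

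No gene passed the threshold of 0.05 on the adjusted p in adult males. The test was edgeR's quasi-likelihood F test with Benjamini-Hochberg adjustment over 24018 genes, and the smallest adjusted p was 0.552. At an unadjusted p under 0.05 lay 2100 genes, or 8.74%, of which 765 (3.19%) were higher and 1335 (5.56%) were lower in exposed males. Without control 6, 23861 genes were tested, none passed (smallest adjusted p 0.986), and 857, or 3.59%, lay at an unadjusted p under 0.05. With controls 4, 5 and 6 all left out, an alternative added after the data were seen, 485 genes or 1.94% did, and none passed. Without control 4 alone the count was 1203, and without control 2 it was 3203. With DESeq2, 2271 genes lay at an unadjusted p under 0.05 and 2 passed, both lower: Spetex2l2 and Prdx6-ps3, a pseudogene at 0 in all 6 exposed libraries that averaged 0.488 ± 0.541 CPM (SD, n = 6) in controls. The voom method of limma with sample quality weights gave 2841 and passed 1, the noncoding locus LOC134480998, also lower. These last 2 were named after their values were seen. Over all genes the median SE of a log2 fold change was 0.23, and its median size, sign aside, was 0.18. The 6 exposed and 6 control libraries did not overlap for 49 genes, or 0.204% of those tested, 32 higher (0.133%) and 17 lower (0.0708%). Genes described below as higher or lower did not pass over all genes unless that is stated.

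Sorcs1, a sorting receptor of the VPS10 family that directs membrane proteins to and from the synapse, was the higher gene with the smallest p. Its 6 controls held 106.3, 111.8, 93.8, 95.1, 107.99 and 86.97 CPM, and its 6 exposed libraries 134.7, 139.6, 122.7, 128.8, 143.5 and 118.2 CPM. All exposed libraries lay above all controls. The log2 fold change was 0.39 ± 0.09 (SE; edgeR unadjusted p = 0.000199, adjusted p = 0.552), and 0.35 ± 0.09 without control 6. The gene lies on chromosome 1.

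Noc3l, a nucleolar protein needed for ribosome assembly, and Skic3, a scaffold of the complex that feeds RNA to the cytoplasmic exosome, also did not overlap between groups. Noc3l lay between 17.5 and 20.1 CPM in controls and between 21.1 and 26.4 CPM in exposed libraries. Its log2 fold change was 0.31 ± 0.08, and 0.30 ± 0.08 without control 6. Skic3 lay between 27.4 and 43.3 CPM in controls, lowest in control 6, and between 43.99 and 52.75 CPM in exposed libraries. Its fold change was 0.36 ± 0.09, 0.29 ± 0.08 without control 6 and 0.17 ± 0.09 without controls 4, 5 and 6. Sv2c, a synaptic vesicle protein of striatal neurons that was picked out after its values were seen, ran from 73.8 to 104.3 CPM in controls and from 106.2 to 127.4 CPM in exposed libraries. Its fold change was 0.42 ± 0.13, and 0.39 ± 0.13 without control 6.

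The remaining higher genes overlapped between the groups. Cyp2r1, a hydroxylase that activates vitamin D, differed by 0.62 ± 0.16 (log2), and Hdx, a homeobox gene on the X chromosome, by 0.59 ± 0.16. Kirrel1, an adhesion molecule of the immunoglobulin family, differed by 0.40 ± 0.11. Clec16a, a regulator of mitophagy, differed by 0.26 ± 0.07, and Chid1, a secreted chitinase-domain protein, by 0.21 ± 0.06. Ptprm, an adhesive receptor tyrosine phosphatase, lay between 101.2 and 110.4 CPM in exposed libraries, and its controls lay between 85.4 and 92.1 CPM except control 1 at 104.9 CPM. Fignl2-ps1, a pseudogene whose reads may belong to its parent gene, differed by 0.99 ± 0.27 at 0.52 to 2.15 CPM. Without control 6 the difference was 0.55 ± 0.17 for Cyp2r1, 0.53 ± 0.16 for Hdx and 0.38 ± 0.12 for Kirrel1. It was 0.22 ± 0.07 for Clec16a, 0.19 ± 0.06 for Chid1 and 0.92 ± 0.29 for Fignl2-ps1. Without controls 4, 5 and 6 the difference was 0.35 ± 0.18 for Cyp2r1, 0.16 ± 0.08 for Clec16a and 0.14 ± 0.07 for Chid1. Without control 6 the rule also named Srsf3-ps11, a pseudogene of a splicing factor, at 0.67 ± 0.20.

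**Figure D2:**
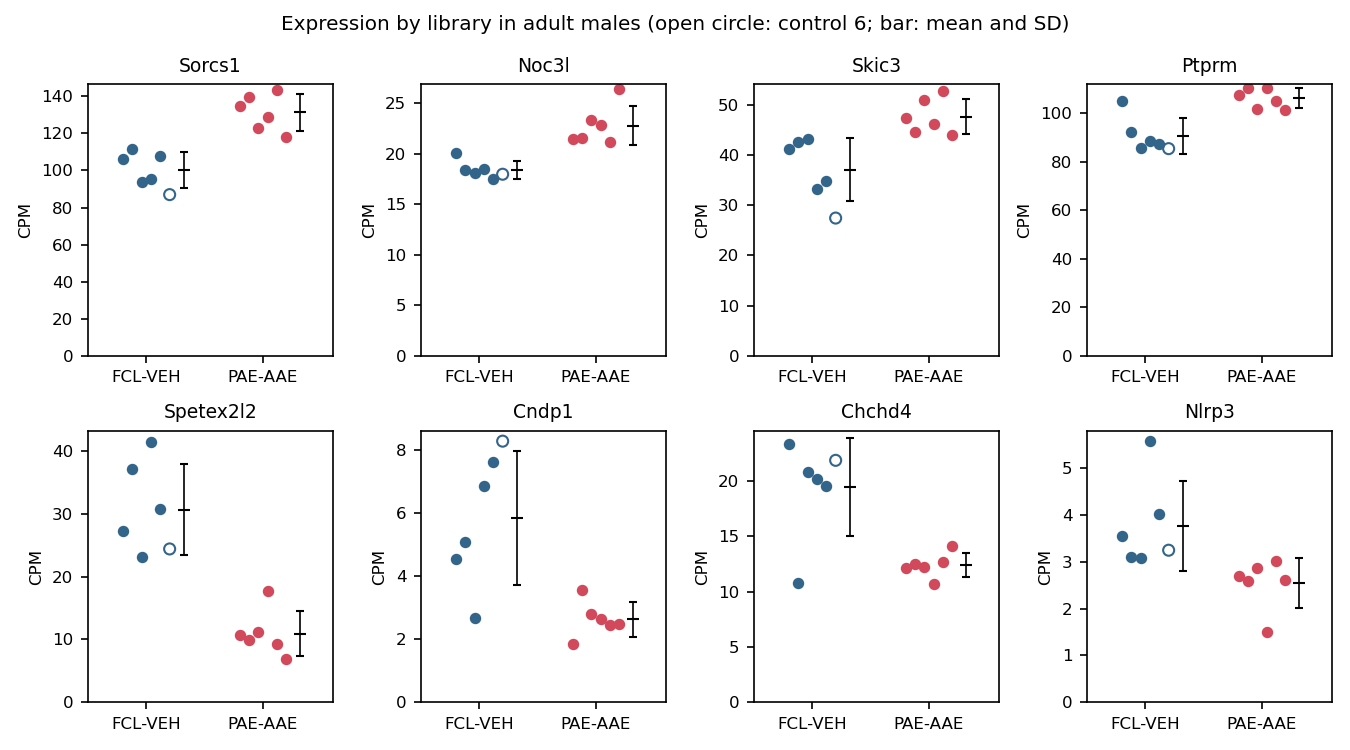
CPM (vertical axes, from 0) of 8 genes in the 6 FCL-VEH and 6 PAE-AAE adult male libraries, with control 6 as an open circle and bars for mean and SD. Sorcs1, Noc3l, Skic3, Spetex2l2 and Nlrp3 do not overlap between the groups, while Ptprm, Cndp1 and Chchd4 each overlap through 1 control.

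Spetex2l2 was the lower gene with the smallest p. It belongs to a rat family of near-identical spermatid-expressed genes, and 13 of the 22 members in the table lie on chromosome 9. Its 6 controls held 27.2, 37.02, 23.1, 41.4, 30.7 and 24.4 CPM, and its exposed libraries 10.7, 9.90, 11.1, 17.6, 9.21 and 6.93 CPM. The lowest control lay above the highest exposed library. The log2 fold change was -1.49 ± 0.33 (edgeR adjusted p = 0.552), -1.54 ± 0.35 without control 6 and -1.42 ± 0.40 without controls 4, 5 and 6. DESeq2 gave -1.48 with an adjusted p of 0.0270, and over all alternatives the adjusted p ran from 0.0270 to 1. Of the 22 Spetex2 genes 6 were tested, and 3 of these were lower, Spetex2l2 among them. Each of the 3 lay at an unadjusted p under 0.05, beside 5.56% of all genes in that direction. How reads of shared sequence were assigned among the copies is not given in the sources used here, so the value may belong to several of them.

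Cndp1, which cleaves carnosine, lay at 4.54, 5.09, 2.69, 6.88, 7.61 and 8.29 CPM in controls and at 1.84 to 3.57 CPM in exposed libraries. Its log2 fold change was -1.15 ± 0.26, -1.02 ± 0.26 without control 6 and -0.63 ± 0.29 without controls 4, 5 and 6, which were its 3 highest. Chchd4, the receptor that imports and oxidizes proteins in the mitochondrial intermembrane space, lay between 19.5 and 23.4 CPM in 5 controls, at 10.8 CPM in control 2, and between 10.7 and 14.2 CPM in exposed libraries. The difference was -0.65 ± 0.16, and -0.61 ± 0.17 without control 6. Lsp1, an actin-binding protein of leukocytes, differed by -1.15 ± 0.26, with control 1 at 1.01 CPM and the other controls between 2.22 and 3.49 CPM. Yjefn3, of the apolipoprotein-binding YjeF family, differed by -1.56 ± 0.37, and Ptpn3, a cytoplasmic tyrosine phosphatase, by -1.54 ± 0.41. Without control 6 the difference was -1.02 ± 0.27 for Lsp1, -1.54 ± 0.39 for Yjefn3 and -1.45 ± 0.43 for Ptpn3.

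More of the lower genes had their high values in controls 4, 5 and 6. Tmsb4x, which binds free actin, held 1008, 820 and 1189 CPM there, 631 to 714 CPM in controls 1 to 3 and 545 to 649.5 CPM in exposed libraries. Its log2 fold change was -0.55 ± 0.15, -0.42 ± 0.14 without control 6 and -0.24 ± 0.15 without the 3 controls. Rhoc, a small GTPase, went from -0.54 ± 0.14 to -0.20 ± 0.13 without the 3 controls, and C14h4orf19 from -0.66 ± 0.17 to -0.26 ± 0.17. Without control 6 alone Rhoc was at -0.43 ± 0.13 and C14h4orf19 at -0.48 ± 0.15. Shox2, a homeobox gene used by thalamic neurons, was high in controls 4 and 6 alone, at 11.1 and 14.0 CPM against 0.23 CPM or less in the other 10. Its difference was 1.35 ± 1.25 without controls 4, 5 and 6. By contrast Yjefn3 (-1.64 ± 0.42) and Ptpn3 (-1.55 ± 0.46) kept their size without them.

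Genes of the cytosolic ribosome were lower together in exposed males, and most of that difference lay in 3 controls. All 23 ribosomal protein genes tested had a lower value in exposed males, where 48.1% of all genes did. All 23 lay at an unadjusted p under 0.05, where 5.56% of all genes tested were lower at that p. The median log2 fold change was -0.36, against 0.01 over all genes. None passed over all genes, and none had groups that did not overlap. Rps3, a protein of the small subunit, held 251, 254, 301, 419, 378 and 514 CPM in controls and 270, 257, 212, 245, 247 and 278 CPM in exposed libraries. Controls 1 and 2 lay within the exposed range, control 3 lay above it and controls 4, 5 and 6 lay far above it. The difference was -0.49 ± 0.15, and -0.35 ± 0.14 without control 6. Rpl23, of the large subunit, differed by -0.46 ± 0.15.

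Without control 6, all 23 ribosomal genes were still lower but 5 lay at an unadjusted p under 0.05, where 1.96% of all genes were lower at that p, and the median was -0.24. Without controls 4, 5 and 6 the median was -0.04, with all 23 lower and none at that p. With the choroid plexus, ependymal and cortical scores in the model, 2 did and the median was -0.19. The ribosomal score itself was 0.40, 0.23 and 0.64 in controls 4, 5 and 6, between -0.25 and 0.02 in controls 1 to 3 and between -0.42 and -0.04 in exposed libraries. The low share of long noncoding RNA in these 3 controls moved with it, and its part in the result was not tested. Ribosomal protein genes have many processed pseudogenes, so part of their reads may be counted elsewhere.

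Messenger RNAs of ribosomal proteins are known for a run of pyrimidines at their 5′ end, through which growth signals regulate their translation. The start sites of 4 members are shown because the whole list was lower together. Each is a RefSeq sequence of the gene's own strand, build GRCr8, from 10 bases before to 20 bases after the start that follows them, with the longest run of C and T in capitals.
Rpl19 (chr10:83519054-83519083, plus strand): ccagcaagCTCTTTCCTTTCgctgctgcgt
Rps18 (chr20:4933735-4933764, plus strand): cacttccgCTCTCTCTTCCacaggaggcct
Rps23 (chr2:23814507-23814536, plus strand): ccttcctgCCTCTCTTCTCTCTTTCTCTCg
Rps3 (chr1:163195757-163195786, minus strand): TTCagcggcgcgcggcagcaagatggcggt
The run was 12, 11 and 21 bases in the first 3 and 3 bases in Rps3. The Rps3 run begins at the first base shown, so it may be longer than the window shows. RefSeq promoters were matched for 17 of the 23 genes. In the 50 bases from 20 before to 30 after the start, the letters CTTTC were found on the gene's strand in 9 of the 17, or 52.9%, against 6.37% of 27457 genes, and on the other strand in 0 of 17 against 6.36%. On either strand they were in 52.9% against 12.4%. Rps3 had the smallest p of the list. Rps18, with a run of 11 bases, was among the 5 left without control 6, at -0.29 ± 0.13. Whether these sequences relate to the lower counts was not tested.

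**Figure D3:**
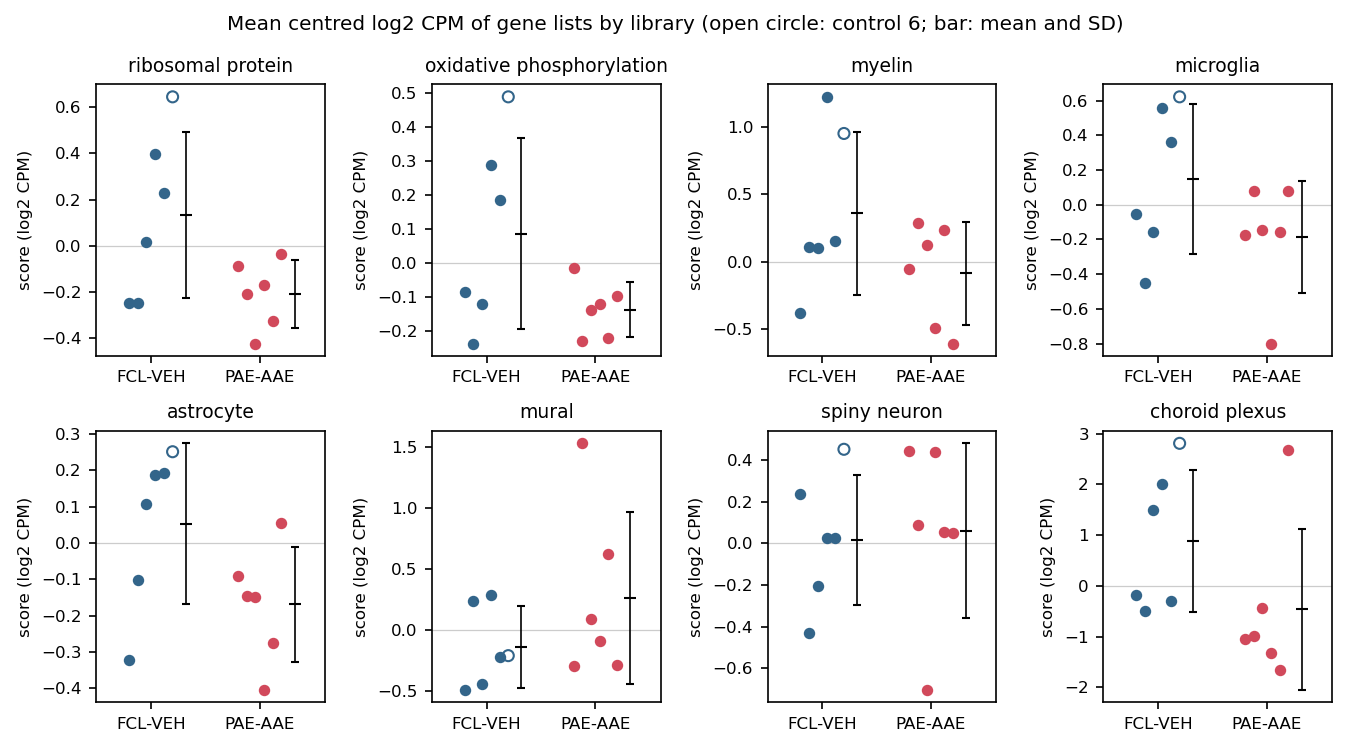
Scores of 8 gene lists (mean centred log2 CPM, vertical axes) in the 6 FCL-VEH and 6 PAE-AAE libraries, with control 6 open and bars for mean and SD. Ribosomal protein and oxidative phosphorylation scores of controls 4, 5 and 6 lie above all exposed libraries, and those of controls 1 and 2 do not.

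Respiratory chain genes showed the same shape. All 25 nuclear genes of oxidative phosphorylation were lower in exposed males, where 48.1% of all genes were, with a median of -0.24. An unadjusted p under 0.05 was reached by 12 of them, beside 5.56% of all genes in that direction. Ndufa2, a subunit of complex I, held 30.4, 26.6, 33.3, 46.4, 42.8 and 62.9 CPM in controls and 24.8 to 30.7 CPM in exposed libraries, a difference of -0.53 ± 0.17. Cox7a2, a subunit of cytochrome c oxidase, differed by -0.43 ± 0.16. Without control 6 the median was -0.15 and 1 gene lay at that p, beside 1.96% of all genes. Without control 4, or without exposed 5, 4 did. Without controls 4, 5 and 6 it was 0.00191 with 13 genes higher and 12 lower.

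Antioxidant genes were lower by a similar amount. Of 24, 21 were lower and 9 of these lay at an unadjusted p under 0.05, beside 5.56% of all genes, with a median of -0.23. Without control 6 the median was -0.16 and 4 did, beside 1.96%. Prdx1, a peroxiredoxin that removes hydrogen peroxide, held 65.3, 84.2, 101.2, 142.2, 102.1 and 164.9 CPM in controls and 57.5 to 88.03 CPM in exposed libraries. The difference was -0.57 ± 0.18, and -0.42 ± 0.17 without control 6. Gpx4, which reduces lipid peroxides, differed by -0.42 ± 0.14 and by -0.30 ± 0.12 without control 6. Without controls 4, 5 and 6 the list's median was -0.05 and none lay at that p.

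**Figure D4:**
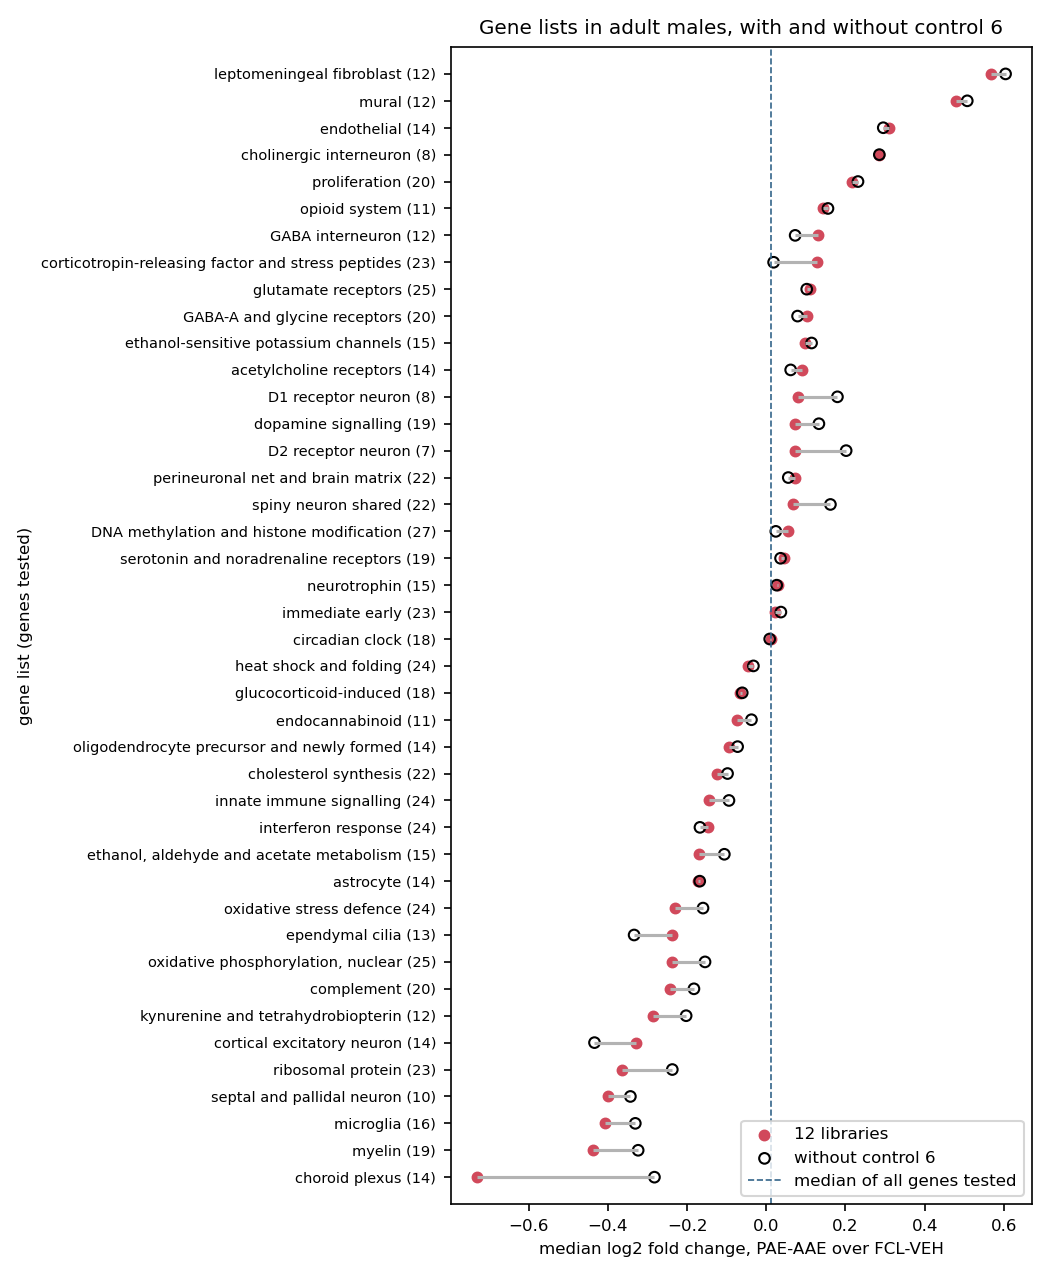
Median log2 fold change (horizontal axis) of 42 gene lists with the number of genes tested in brackets, from all 12 libraries (filled) and without control 6 (open), with the median of all genes as a dashed line. Ribosomal, oxidative phosphorylation, myelin and choroid plexus medians move toward the dashed line without control 6, and mural and meningeal medians do not. The blood list, at 2.01, is not drawn.

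Myelin, microglial and astrocyte genes were mostly lower in exposed males, without a gene past the threshold. Genes of oligodendrocyte precursors and newly formed oligodendrocytes were mixed, with 6 of 14 higher, 8 lower and a median of -0.10. Without control 6, 4 were higher and 10 lower, with a median of -0.07. All 19 myelin genes were lower, where 48.1% of all genes were, with a median of -0.44, and 6 lay at an unadjusted p under 0.05, beside 5.56%. Without control 6 the median was -0.32 and 3 did, beside 1.96%, and without control 4 it was -0.27 and 1 did. Mbp, myelin basic protein, held 3221, 4741, 5391, 15621, 6360 and 13895 CPM in controls and 3026 to 5218 CPM in exposed libraries. Controls 4 and 6 alone stood far above the rest. The difference was -0.93 ± 0.33, and -0.71 ± 0.33 without control 6. Ppp1r14a, a phosphatase inhibitor of oligodendrocytes, differed by -0.89 ± 0.29. The myelin median was 0.00519 without controls 4, 5 and 6, with 11 genes higher and 8 lower. Pvalb, the calcium buffer of fast-spiking interneurons, had the same high controls as myelin, with 46.7 and 50.6 CPM in controls 4 and 6, 15.7 CPM in control 5 and 3.81 to 10.5 CPM in the other 9. The septal and pallidal scores of controls 4 and 6 were 0.12 and -0.17. Whether septal, pallidal or other neighbouring tissue holds a part in these values was not tested.

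Of 16 microglial genes 14 were lower, 7 at an unadjusted p under 0.05, beside 5.56% of all genes, with a median of -0.41. Without control 6 the median was -0.33 and 3 lay at that p, beside 1.96%. C1qb, a chain of the complement protein C1q that tags synapses for removal, held 27.7, 17.99, 24.2, 39.4, 39.0 and 49.5 CPM in controls and 14.8 to 27.5 CPM in exposed libraries. Its difference was -0.59 ± 0.20, and -0.43 ± 0.20 without control 6. Aif1, which encodes the microglial marker IBA1, differed by -0.59 ± 0.22. The microglial score of exposed 4 was the lowest, at -0.80, and those of controls 4, 5 and 6 were the highest. Without these 3 controls the median was -0.06. The complement list, which holds the C1q chains too, had 14 of 20 genes lower, with a median of -0.24. At that p lay 3 of them, beside 5.56% of all genes. Without control 6 the median was -0.18 and 2 did, beside 1.96%. Without exposed 4 the complement median was -0.08.

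Nlrp3, the sensor of the inflammasome that microglia use to release interleukin 1, had groups that did not overlap. It held 3.54, 3.10, 3.08, 5.58, 4.01 and 3.24 CPM in controls and 2.69, 2.59, 2.87, 1.49, 3.01 and 2.62 CPM in exposed libraries. The highest exposed library lay just under the lowest control, and the highest controls were 4 and 5. The difference was -0.56 ± 0.18, and -0.60 ± 0.19 without control 6. The other 23 innate immune genes overlapped between groups, where 0.204% of all genes did not, and the list's median was -0.15. Of 24 interferon response genes 16 were lower with a median of -0.15 (0.01 without control 3), led by Psmb10, an immunoproteasome subunit (-0.41 ± 0.15), and B2m, the light chain of class I molecules (-0.35 ± 0.13).

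Astrocyte genes were lower for all 14 members, where 48.1% of all genes were, with a median of -0.17 and 4 at an unadjusted p under 0.05, beside 5.56%. Without control 6, 13 of 14 were lower and 2 lay at that p, beside 1.96%. S100b, a calcium-binding protein of astrocytes, ran from 78.99 to 160.1 CPM in controls and from 67.7 to 113.9 CPM in exposed libraries, a difference of -0.48 ± 0.15 (-0.39 ± 0.15 without control 6). Ntsr2, a neurotensin receptor of astrocytes, differed by -0.32 ± 0.12. When controls 4, 5 and 6 were left out, 10 of 14 were lower and none lay at that p.

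Vessel genes were higher, and exposed 2 carried much of it. All 12 mural cell genes were higher in exposed males, where 51.9% of all genes were, and their median was 0.48. An unadjusted p under 0.05 was reached by 4 of them, beside 3.19% of all genes in that direction. Of 14 endothelial genes, 13 were higher and the median was 0.31. Without control 6 the mural median was 0.51 and the endothelial median 0.30. Pdgfrb, the receptor that holds pericytes to vessels, held 24.2, 26.3, 19.9, 21.2, 19.4 and 15.9 CPM in controls and 23.7, 44.01, 25.9, 21.6, 35.6 and 25.2 CPM in exposed libraries. Exposed 2 and 5 were the high ones, and the difference was 0.47 ± 0.19. Myh11, smooth muscle myosin, held 51.9 CPM in exposed 2 and 7.71 to 13.9 CPM in the other 11. Without exposed 2 the mural median was 0.18, with 9 of 12 higher and none at that p, and the endothelial median was 0.19. Haemoglobin genes moved with exposed 2 as well: Hba-a1 held 85.4 CPM there and 0.34 to 7.69 CPM in the others, and the blood median of 2.01 went to -0.16 without it. The part of blood and vessel content in these values was not tested.

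Gene lists of the projection neurons that fill this tissue had medians near 0 over the 12 libraries. These medians depended on which libraries were left out. Of 22 genes shared by spiny neurons 19 were higher, with a median of 0.07 and none at an unadjusted p under 0.05, and without control 6 all 22 were higher, where 50.9% of all genes were, with a median of 0.16. The split was 9 higher and 13 lower without exposed 4, and 11 and 11 without exposed 1 or without control 2. All 22 were higher without exposed 3, with a median of 0.18, and without controls 4, 5 and 6, with a median of 0.23. Foxp2, a transcription factor of these cells, differed by 0.13 ± 0.15, and Gad1, which makes GABA, by 0.08 ± 0.09. The 8 genes of D1 neurons had a median of 0.08 and the 7 of D2 neurons 0.07. Without control 6 these medians were 0.18 and 0.20, and without controls 4, 5 and 6 they were 0.26 and 0.23. Without exposed 4 both were -0.03. Drd1 differed by 0.17 ± 0.23, Drd2 by 0.07 ± 0.25 and Penk by 0.13 ± 0.18. Without control 6 the differences were 0.23 ± 0.25 for Drd1, 0.20 ± 0.26 for Drd2 and 0.24 ± 0.19 for Penk.

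Pdyn, the dynorphin precursor, was the member of these lists nearest the threshold. It held 203.9, 145.0, 178.99, 153.0, 174.0 and 159.9 CPM in controls and 256.1, 242.3, 137.7, 252.6, 225.7 and 180.9 CPM in exposed libraries. Exposed 1, 2, 4 and 5 lay above all controls and exposed 3 below all of them. The difference was 0.35 ± 0.15 (unadjusted p = 0.0242, edgeR adjusted p = 0.552) and 0.34 ± 0.16 without control 6. Exposed 3 also had the lowest spiny neuron score. Oprm1, the mu opioid receptor, ran from 3.68 to 9.999 CPM in controls and from 7.18 to 13.5 CPM in exposed libraries, a difference of 0.48 ± 0.24, and 0.37 ± 0.23 without control 6. It was 0.21 ± 0.25 without controls 4, 5 and 6. Of 11 opioid system genes 8 were higher, with a median of 0.14.

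The 8 cholinergic genes were all higher (median 0.28). Without control 6, 7 of 8 were and the median was 0.29. It was 0.11 without exposed 3, 0.50 without control 5 and 0.09 with the choroid plexus, ependymal and cortical scores in the model. Slc5a7, the choline transporter, held 32.4, 47.7, 21.8, 28.4, 50.6 and 31.3 CPM in controls and 49.2, 39.0, 80.4, 52.00, 47.99 and 32.2 CPM in exposed libraries, a difference of 0.50 ± 0.22. Slc17a8, the glutamate transporter these cells also carry, differed by 0.38 ± 0.23. Nos1, the nitric oxide synthase of a class of GABA interneurons, ran from 63.5 to 116.1 CPM in controls and from 79.5 to 142.1 CPM in exposed libraries. It differed by 0.43 ± 0.13, and by 0.36 ± 0.13 without control 6. Of the 12 GABA interneuron genes 8 were higher and 4 lower, with a median of 0.13, and 0.07 without control 6.

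Receptor lists lay close to 0. Of 25 glutamate receptor genes 21 were higher, where 51.9% of all genes were, with a median of 0.11. An unadjusted p under 0.05 was reached by 3 of them, beside 3.19% of all genes in that direction, and by 1 without control 6, without control 3 or without exposed 1. Grik2, a kainate receptor subunit, differed by 0.26 ± 0.09 (0.24 ± 0.09 without control 6). Of 20 GABA-A and glycine receptor genes 17 were higher, and the median was 0.10. Without exposed 3, 10 were higher and 10 lower, and with the 3 neighbouring tissue scores in the model 12 were higher and 8 lower. Gabrg3, a gamma subunit, differed by 0.36 ± 0.13 and Gabra2, a gene long studied in alcohol dependence, by 0.14 ± 0.08. Of 19 dopamine signalling genes 14 were higher, and the list had a median of 0.07. Without exposed 4 the count was 7 and the median -0.03. Ddc, which makes dopamine from L-DOPA, differed by 0.58 ± 0.21, with 3.85 to 6.21 CPM in controls and 5.21 to 12.2 CPM in exposed libraries. The 15 ethanol-sensitive potassium channels had a median of 0.10 and none at that p.

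Neurotrophin genes split. Sorcs1 was joined by Sorcs3, another VPS10 receptor, which ran from 25.9 to 50.0 CPM in controls and from 42.8 to 53.1 CPM in exposed libraries (0.34 ± 0.13, and 0.25 ± 0.11 without control 6). Of the 15 genes 8 were higher and 7 lower, with a median of 0.03 and a range from -1.60 to 0.46. At an unadjusted p under 0.05 (edgeR) lay 3 higher and 1 lower, beside 3.19% and 5.56% of all genes. Without control 6 these were 2 and 2, beside 389 and 468 of 23861 genes. Bdnf, the main growth factor of cortical inputs, held 5.64 CPM in control 1 and 0.64 to 1.43 CPM in the other controls, and 0.45 to 2.39 CPM in exposed libraries. Its difference was -0.62 ± 0.62, and 0.12 ± 0.59 without control 1. Control 1 was also the library with the highest cortical neuron score, and the part of cortical tissue in Bdnf was not tested.

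Of 15 genes that oxidize ethanol, aldehydes or acetate 12 were lower with a median of -0.17, and 3 lay at an unadjusted p under 0.05, beside 5.56% of all genes. Without control 6 the median was -0.11 and none did. Adh5, a class III alcohol dehydrogenase, differed by -0.27 ± 0.10, and by -0.18 ± 0.10 without control 6. Aldh1a1, a retinal and aldehyde dehydrogenase, differed by -0.69 ± 0.33, with 17.4 and 21.5 CPM in controls 4 and 6 and 4.67 to 11.7 CPM in the other 10. Fkbp5, a target of glucocorticoids that is often used as a stress readout, differed by -0.04 ± 0.15, and 18 glucocorticoid-induced genes had a median of -0.07. Crh, corticotropin-releasing hormone, differed by 0.12 ± 0.62. The 23 immediate early genes had a median of 0.02 and Fos, an activity marker, differed by 0.16 ± 0.32. The 18 clock genes had a median of 0.01.

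Genes that turn tryptophan into kynurenine products and that recycle tetrahydrobiopterin were lower in 11 of 12 cases, where 48.1% of all genes were, with a median of -0.29. Without control 6, 10 of 12 were and the median was -0.20. Kyat1, a transaminase that makes kynurenic acid, held 18.2, 17.9, 20.1, 19.2, 19.4 and 21.04 CPM in controls and 17.2, 15.7, 13.1, 16.96, 15.2 and 16.96 CPM in exposed libraries. The groups did not overlap, and the difference was -0.28 ± 0.08 (-0.25 ± 0.09 without control 6). Qdpr, which regenerates tetrahydrobiopterin for dopamine synthesis, differed by -0.65 ± 0.28, with 435 and 386 CPM in controls 4 and 6 and 110.7 to 247.2 CPM in the other 10. When controls 4, 5 and 6 were left out, the list's median was 0.00477.

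The same exposures were carried by adult females, 5 exposed and 8 control libraries that share no library with the males. The same edgeR fit gave a test of whether the exposure difference depended on sex, as the difference in females less that in males. No gene passed (smallest adjusted p 0.423), nor did any with DESeq2 or voom, where 2828 and 4338 lay at an unadjusted p under 0.05. At an unadjusted p under 0.05 lay 2544 genes or 10.6%, 1584 or 6.64% without male control 6, and 702 or 2.80% without male controls 4, 5 and 6. In females alone no gene passed, and 4.23% lay at an unadjusted p under 0.05.

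Spetex2l2 was lower in females by almost the same amount. Exposed females held 8.30, 8.61, 8.68, 10.7 and 9.75 CPM. Female controls ran from 8.61 to 55.3 CPM and overlapped them in 2 of 8 libraries. The female difference was -1.57 ± 0.34 and the female minus male difference -0.08 ± 0.46 (unadjusted p = 0.868, edgeR). With that SE, the interval of the difference is wide. Srsf3-ps11 was also higher in both sexes, by 0.66 in females.

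Sorcs1 differed by 0.08 ± 0.09 in females, and the sexes' difference was -0.31 ± 0.13 (unadjusted p = 0.0214, edgeR adjusted p = 0.423). Nlrp3 differed by 0.25 ± 0.17 in females, and the sexes' difference was 0.82 ± 0.25 (adjusted p = 0.423, edgeR). Both genes, and Rps3 below, were picked for their male values. Those values also enter the sexes' difference, so that difference is not an independent result. The smallest p of the sex difference on the negative side belonged to Ptprm, at -0.41 ± 0.09 with -0.18 ± 0.07 in females, Fignl2-ps1, at -1.66, and Zfp534l1, a zinc finger gene, at -0.84. On the positive side stood Htra1, a secreted serine protease, at 0.60 with 0.52 in females and -0.07 in males, Apln, the ligand of the apelin receptor, at 0.60, and Tmem238 at 1.08. Each of these 6 had an edgeR adjusted p of 0.423.

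**Figure D5:**
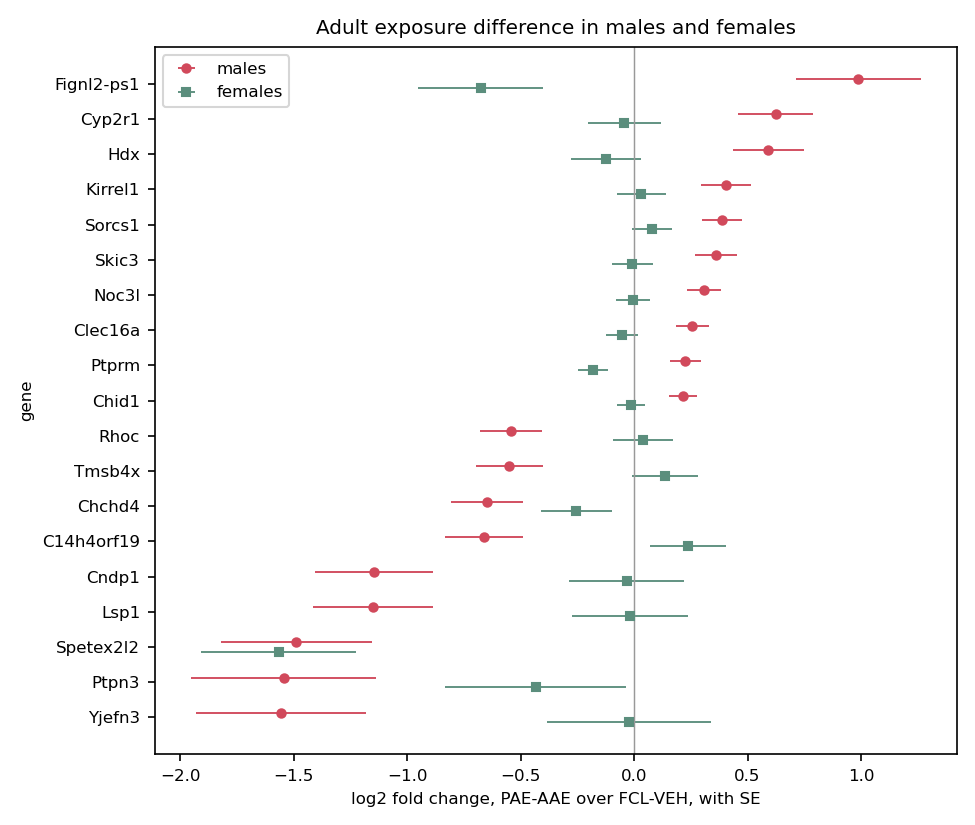
Log2 fold change of PAE-AAE over FCL-VEH with SE (horizontal axis) for 19 genes named in males, in males (circles) and females (squares). Spetex2l2 lies near -1.5 in both sexes, at -1.49 and -1.57. Shox2, at -5.12 in males, is not drawn.

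Among the lists, the ribosomal one had the largest share of members at an unadjusted p under 0.05 for the difference between the sexes. All 23 were higher in exposed than in control females, where 45.1% of all genes were, with a median of 0.20, and the female minus male difference lay at an unadjusted p under 0.05 for all 23, beside 10.6% of all genes. Rps3 differed by 0.21 ± 0.15 in females, and the sexes' difference was 0.70 ± 0.21 (adjusted p = 0.423, edgeR). Without male control 6 the difference lay at that p for 22 of 23, beside 6.64%, with a median of 0.44. Without male controls 4, 5 and 6 it did for none, beside 2.80%, with a median of 0.23. Oxidative phosphorylation genes had a median of 0.34 with 11 of 25 at that p, and 3 of 25 without male control 6.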

How the data were processed

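The authors deposited raw read counts per gene, 1 column per library, in a table that also holds FPKM values, which were not used. Libraries were not strand-specific, per the labels' protocols, so reads of a gene and of an antisense gene over it were counted without regard to strand. The submitters' processing notes list fastp and HISAT2 2.0.5, while for the read counter and the genome build the entry is not given in the sources used here. Gene positions of 45780 of 45785 named genes were identical to GRCr8. Loci without a name (720) took 0.271% to 0.412% of a library's counts and were left out. All 25 adult libraries entered 1 edgeR 4.0.16 fit (R 4.3.3; TMM, default filter by group, quasi-likelihood F test, two-sided), with 4 group means. Benjamini-Hochberg adjustment ran over all genes. Alternatives used DESeq2 1.42.0 and limma 3.58.1. Reads carry no molecular identifiers. No 2 of the 12 libraries held identical counts, and their correlation over genes ran from 0.925 to 0.966. Functions were tested on simulated data.

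Named genes had a proper symbol, locus numbers aside, and averaged 1 CPM or more over the 12 libraries. They are the 10 higher and 10 lower with the smallest p, 5 each without control 6, 3 each for the sexes' difference, and up to 2 members with the smallest p in each list described, besides Drd1, Drd2, Penk, Pdyn, Oprm1, Fos, Bdnf, Fkbp5, Crh, Xist and Kdm5d. Members beyond 2 of a list, such as Ttr, were named after their values were seen. Some genes that the rule names are not reported here. Of 722 distinct genes in 44 lists, 4 were matched by a synonym, 3 were not matched and 19 were not tested. The members and lists were chosen with earlier results of these data known. Lists are described by counts and medians, with no set test.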

Additional observations from a re-analysis of the deposited data

Results flagged for a closer look

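Among the named genes and list scores, 158 groups of 6 libraries were screened with Dixon's test for a library far from the others, and 11 were flagged. Chance flags about 1 in 20 groups. Control 1 held 3 of the flags: Ptprm at 104.9 CPM (others 85.4 to 92.1), Bdnf at 5.64 CPM (0.64 to 1.43) and Lsp1 at 1.01 CPM (2.22 to 3.49). Control 2 was low for Chchd4, at 10.8 CPM against 19.5 to 23.4. Control 6 was low for Kdm5d, at 30.4 CPM against 38.9 to 44.9, and high for the acetylcholine receptor score, at 0.19 against -0.11 to -0.01. Exposed 3 was low for Drd2, at 83.5 CPM against 161 to 226, for the spiny neuron score, at -0.71 against 0.05 to 0.45, and for the glucocorticoid-induced score, at -0.42 against -0.12 to 0.04. Exposed 4 was low for the microglia score, at -0.80 against -0.17 to 0.08. Exposed 6 was high for the choroid plexus score, at 2.69 against -1.66 to -0.44.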

How the results depend on the processing

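No gene passed in males with edgeR under size factors by relative log expression, no filter, the 12 male libraries alone, all 54 libraries, 3 neighbouring tissue scores as covariates, each library left out in turn, or controls 4, 5 and 6 left out (added after the data were seen). DESeq2 passed 2 lower genes and voom 1. The count at an unadjusted p under 0.05 was 4020 with no filter, 3206 with all 54 libraries, 1155 with the covariates and 485 without the 3 controls, and from 857 to 3203 with 1 library left out (857 without control 6, 1203 without control 4, 3203 without control 2). For the sexes' difference it was 4394, 4338 with voom, 1255 and 702 in the settings no filter, voom, covariates and without the 3 controls, and 1584 to 3542 with 1 library left out. The cause was not tested beyond the genes and samples each setting adds or removes. Of the named genes, Spetex2l2 alone passed in a setting (DESeq2). Direction turned for Drd2 (-0.0132 without exposed 1, -0.0265 without exposed 4, -0.038 without control 2; range with 1 library left out -0.038 to 0.212), Fos (-0.184 with covariates, -0.0949 without the 3 controls; range -0.0485 to 0.328), Bdnf (range -0.930 to 0.123, above 0 without control 1 alone), Fkbp5 (0.0346 without the 3 controls; range -0.117 to 0.0468), Crh (-0.581 with covariates; range -0.216 to 0.443), Xist (3.87 without the 3 controls; range -4.21 to 0.915, above 0 without control 6), Kdm5d (-0.0205 without the 3 controls) and Shox2 (1.35 without the 3 controls). The other genes that were named by smallest p over all genes, or always named, kept their direction in all settings run. Other genes, such as those named from a list, were not followed one by one through these settings. No paired analysis was possible because replicate numbers follow the order of deposition and the labels give no litter or shared animal. With a median SE of 0.23 on the log2 scale, differences of that size cannot be resolved gene by gene.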
